A study of Homo sapiens with 6 samples.

Results

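Genes for enzymes that add methyl groups to lysines of histones, or remove them, were followed in ARPE-19, an established human cell line derived from retinal pigment epithelium. They were chosen by name: every gene with a symbol starting with KDM, KMT or SETD and a digit, as the platform annotation gives it for a probe set that names 1 gene only. The choice found 36 genes, with 125 probe sets, of 18132 genes on the array. Each gene was represented by its brightest probe set over the 6 arrays, and 34 of the 36 were bright enough to test, as were 12221 genes in all. KDM4E and KDM6B were under the floor, a log2 value of 4.64 at the 40th percentile of the probe sets. Affymetrix arrays were hybridised with biotin-labelled RNA, 1 array for each of 6 samples. The protocol has every culture transfected with a GFP (green fluorescent protein) plasmid and kept for 48 h. The 3 samples called 3 h then received 10 mU/ml glucose oxidase, an enzyme that makes hydrogen peroxide from glucose and oxygen, for 3 h, and the 3 samples called 0 h did not. The descriptions of the 3 h samples name a transfection with GFP and satellite alpha, a centromeric repeat, in place of GFP alone, so construct and treatment cannot be told apart. No culture is said to be separate from another, so p-values measure the spread between these samples, which may be technical.

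Methylated lysines in the tails of histones H3 and H4 mark the state of a gene. H3K4 methylation lies at promoters and enhancers, H3K36 methylation along transcribed gene bodies, H3K27 and H3K9 methylation on silent chromatin, and H4K20 methylation is tied to chromosome compaction and replication. The writers take the methyl group from S-adenosylmethionine. The KDM1 erasers use a flavin and release hydrogen peroxide as they work, while the other KDM families (KDM2 to KDM8) carry a JmjC domain that needs iron, oxygen and 2-oxoglutarate, which ties them to the redox state and the metabolism of the cell.

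The cells showed part of the pattern of retinal pigment epithelium. Of 11 markers of that epithelium with a probe set 8 were over the floor, among them KRT8, KRT18, MITF and OTX2, while RPE65, RLBP1 and TYRP1, which act in the visual cycle and in pigment formation, were under it. Those 11 markers averaged 6.92 at 0 h and 7.08 at 3 h on the log2 scale. Of the 8 over the floor 5 were called higher and 1 lower, where 20.6% of all tested genes were called higher and 30.8% lower. The 4 blood markers and 3 endothelial markers averaged 4.23 and 4.59 at 0 h. Only 2 of each kind were over the floor and tested, and 0 were called (limma, adjusted p). PTPRC, which all leukocytes carry, was under the floor at 2.44 at 0 h and 2.54 at 3 h. Of 4 photoreceptor and neuron markers, averaging 5.29 and 5.25, 3 were over the floor and 1 was called lower. The counts over the floor therefore do not set the epithelium apart from the other cell types. In RNA from whole cultures, fewer cells of a kind and less RNA per cell cannot be told apart. RNA and array controls also moved with the groups: each of the 24 poly-A spike probe sets read lower on all 3 h arrays (median -0.60 in log2). So did 17 of the 18 hybridization spike probe sets (median -0.31). The 5′ probe set of actin read below its 3′ probe set by a log2 difference of -2.06 ± 0.07 at 0 h and of -1.20 ± 0.06 at 3 h (SD, n = 3). Their part in the results that follow was not tested.

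Of the 34 tested writer and eraser genes 12 rose and 8 fell at 3 h (limma, Benjamini-Hochberg adjusted p under 0.05 over all tested genes). That is 58.8% called, where 51.3% of all tested genes were called. In the upward direction 35.3% of the genes were called against 20.6% of all tested genes, and in the downward direction 23.5% against 30.8%. With the trend on gene density along the genome removed from each array, the split was 15 higher and 5 lower, where 23.6% of 11947 genes were called higher and 26.9% lower. At a size of at least 1.5-fold 8 genes rose and 2 fell, while 4.11% of all tested genes rose and 4.93% fell by that much. The median log2 change was 0.08, with -0.04 over all tested genes. The arrays of the groups did not overlap for 20 of the 34 genes, or 58.8%, and for 60.5% of all tested genes. Of 17 writers 6 rose and 5 fell, and of 17 erasers 6 rose and 3 fell. Changes of at least 1.5-fold were called for 7 of the writers and 3 of the erasers, and the median absolute log2 change was 0.35 and 0.18, with 0.20 over all tested genes. These classes follow the gene names. The writers include KMT2E and 5 SETD genes (SETD3, SETD4, SETD5, SETD6 and SETD9) whose known targets lie mostly outside histone tails or are not settled. Of those 5 SETD genes 1 rose and 3 fell, and 2 of these changes were at least 1.5-fold. The erasers include KDM8, which was given no histone mark here.

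**Figure D1:**
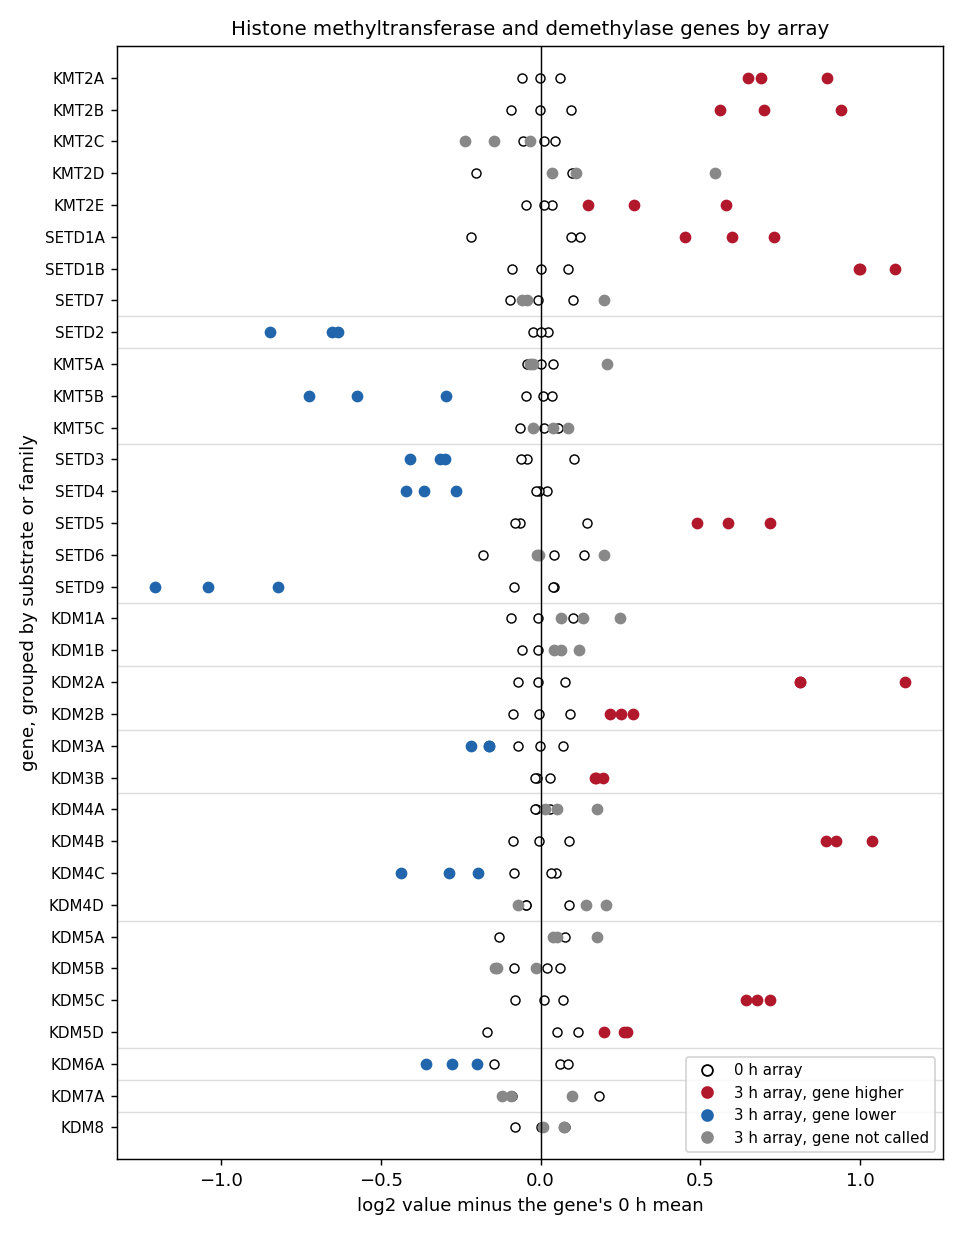
Values of the 34 tested genes on each array, as the log2 value minus the mean of the 0 h arrays of the same gene (open circles 0 h, filled circles 3 h, n = 3 arrays each, coloured by the limma call; grey lines part the substrate groups and families). The 3 h arrays of SETD1B, KDM4B and KDM2A lie farthest to the right and those of SETD9 and SETD2 farthest to the left.

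Of 8 tested genes of the H3K4 writer group 5 rose, 0 fell and 3 were not called by their brightest probe set, with a median log2 change of 0.47. That is 62.5% called, all higher, where 51.3% of all tested genes were called, 20.6% higher and 30.8% lower. The 3 h and 0 h arrays did not overlap for 62.5% of the 8, and for 60.5% of all tested genes. Among the 5 that rose is KMT2E, whose probe sets were called in both directions, and without it 4 of 7 rose and 0 fell (median 0.59). The group holds the catalytic subunits of the COMPASS complexes (SETD1A, SETD1B and KMT2A to KMT2D), KMT2E, a relative with little activity of its own, and SETD7, which also methylates many other proteins. SETD1B, one of the enzymes that place most H3K4 trimethylation at promoters, stood at 6.83, 6.75 and 6.66 on the 0 h arrays and at 7.86, 7.74 and 7.74 on the 3 h arrays. All 3 arrays with glucose oxidase were therefore higher than any without, and the groups lay far apart. SETD1B was 2.05-fold higher at 3 h (log2 change 1.04, SE 0.07, n = 3, adjusted p = 2.21e-05). Its relative SETD1A had log2 values of 6.37, 6.71 and 6.68 at 0 h and of 7.32, 7.04 and 7.18 at 3 h. The groups did not overlap there either, although the 0 h arrays were spread over a wider range than for SETD1B. SETD1A rose by 0.59 (SE 0.11, adjusted p = 0.00184). Each of these 2 genes has 1 probe set, so no second measurement on the array bears on them.

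KMT2A, the founding member of the mixed lineage leukemia family, which keeps HOX genes active, had log2 values of 6.85, 6.79 and 6.91 at 0 h and of 7.54, 7.50 and 7.74 at 3 h. It rose by 0.75 (SE 0.08, adjusted p = 0.000139), with all 3 h arrays above all 0 h arrays. Its closest relative KMT2B stood at 5.37, 5.47 and 5.28 and then at 6.07, 6.31 and 5.94, and rose by 0.73 (SE 0.10, adjusted p = 0.000445). The increases of these brightest probe sets were thus of like size, and the difference between them on an array moved by 0.01 (SE 0.20). Of 6 probe sets of KMT2A over the floor only 2 were called higher, so the likeness may not hold for the genes as a whole. KMT2E had log2 values of 6.61, 6.58 and 6.52 at 0 h and of 6.86, 6.72 and 7.15 at 3 h, a rise of 0.34 (SE 0.10, adjusted p = 0.0213). The call ended without replicate 2 or 3 at 0 h (0.35 and 0.32), and other probe sets of KMT2E differ, as given further on. KMT2C and KMT2D, which mainly place monomethylation at enhancers, were not called, at -0.14 (adjusted p = 0.116) and 0.23 (adjusted p = 0.196). Without replicate 1 of the 3 h arrays KMT2C was called lower (-0.19, adjusted p = 0.0401), while averaged over its probe sets it was called higher (0.39). The 0 h mean of KMT2D (4.60) was under the floor of 4.64 and its 3 h mean (4.83) over it. SETD7, at 8.57, 8.48 and 8.67 at 0 h and 8.53, 8.51 and 8.77 at 3 h, was not called (log2 change 0.03, SE 0.09, adjusted p = 0.771), and its groups overlapped over nearly their whole range.

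The writers of other marks with KMT or SETD symbols were SETD2 for H3K36 and the KMT5 genes for H4K20. SETD2, the enzyme behind H3K36 trimethylation, a mark used in splicing control and DNA repair, stood at 8.66, 8.61 and 8.63 at 0 h and at 7.79, 7.98 and 8.001 at 3 h. The 0 h arrays of this gene were nearly equal and all 3 h arrays lay below them. SETD2 was 1.64-fold lower at 3 h (log2 change -0.71, SE 0.07, adjusted p = 0.000110). KMT5B, which adds further methyl groups to H4K20, had log2 values of 6.78, 6.83 and 6.86 at 0 h and of 6.10, 6.25 and 6.53 at 3 h, and fell by 0.53 (SE 0.10, adjusted p = 0.00254). Its 3 h arrays were spread over more than the 0 h arrays but did not overlap them. KMT5A, the H4K20 monomethyltransferase, and KMT5C, which shares the reaction of KMT5B, stood at 0.05 (adjusted p = 0.599) and 0.03 (adjusted p = 0.651).

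The other SETD genes, whose known targets lie mostly outside histone tails or are not settled, held the largest decrease. SETD9, a little studied SET domain gene, stood at 6.65, 6.52 and 6.65 at 0 h and at 5.40, 5.78 and 5.57 at 3 h. Every 3 h array was lower than every 0 h array. SETD9 was 2.03-fold lower (log2 change -1.02, SE 0.10, adjusted p = 9.66e-05). It has 1 probe set, so no second measurement on the array bears on it. SETD4 stood at 6.66, 6.63 and 6.62 and then at 6.27, 6.37 and 6.21, and fell by 0.35 (SE 0.06, adjusted p = 0.00134). SETD3, the histidine methyltransferase of actin, stood at 8.62, 8.76 and 8.59 and then at 8.25, 8.36 and 8.34, and fell by 0.34 (SE 0.07, adjusted p = 0.00270). For the brightest probe sets of both genes the groups were apart on all arrays. The other probe set of SETD4 over the floor stood at -0.01. Those of SETD3 reached up to 0.16, and averaged over its probe sets SETD3 stood at -0.05 and was not called. SETD5, which is mutated in intellectual disability, went the other way, with log2 values of 6.38, 6.59 and 6.36 at 0 h and of 6.93, 7.16 and 7.03 at 3 h. It rose by 0.60 (SE 0.08, adjusted p = 0.000567). SETD6, which methylates the NF-kB subunit RelA, was not called (0.06, adjusted p = 0.608).

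The promoters of 4 demethylase genes are printed here: the KDM4 genes that were called in opposite directions, and the other genes with a match to the AP-1 site, the letters that stress-responsive factors of the bZIP family read. They were chosen after the matches and the changes were seen. They are from RefSeq (GRCh38.p14) and end at the base before the start, with the AP-1 site (TGAGTCA or TGACTCA) and the E-box (CACGTG) in capitals, both searched on both strands. The lines give KDM3A at chr2:86441211-86441460, KDM4C at chr9:6757723-6757972, KDM6A at chrX:44872938-44873187 and KDM4B at chr19:4968863-4969112, all on the plus strand.
KDM3A: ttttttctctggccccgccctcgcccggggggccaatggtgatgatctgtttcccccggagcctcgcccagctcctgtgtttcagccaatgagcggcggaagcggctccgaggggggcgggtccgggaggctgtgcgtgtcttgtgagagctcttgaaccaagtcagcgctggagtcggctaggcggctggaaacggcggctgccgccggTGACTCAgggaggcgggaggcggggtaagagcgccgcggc
KDM4C: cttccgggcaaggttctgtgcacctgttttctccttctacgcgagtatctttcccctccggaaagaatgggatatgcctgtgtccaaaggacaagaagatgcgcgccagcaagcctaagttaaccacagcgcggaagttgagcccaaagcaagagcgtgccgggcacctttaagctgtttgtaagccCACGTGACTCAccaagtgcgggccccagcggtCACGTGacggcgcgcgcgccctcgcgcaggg
KDM6A: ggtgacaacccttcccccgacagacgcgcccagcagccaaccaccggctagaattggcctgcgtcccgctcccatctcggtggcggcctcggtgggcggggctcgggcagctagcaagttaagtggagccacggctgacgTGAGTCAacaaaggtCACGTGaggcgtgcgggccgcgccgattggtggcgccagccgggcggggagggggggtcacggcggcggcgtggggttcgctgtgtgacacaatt
KDM4B: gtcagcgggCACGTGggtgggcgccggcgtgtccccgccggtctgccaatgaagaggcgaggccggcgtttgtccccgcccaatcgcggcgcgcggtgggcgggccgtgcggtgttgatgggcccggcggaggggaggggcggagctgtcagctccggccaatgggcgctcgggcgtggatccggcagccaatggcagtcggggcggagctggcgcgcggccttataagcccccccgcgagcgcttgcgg

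Among the erasers, the flavin enzymes were not called. KDM1A, also known as LSD1, stood at 8.49, 8.40 and 8.60 at 0 h and at 8.63, 8.75 and 8.56 at 3 h. Its arrays overlapped, at a log2 change of 0.15 (SE 0.07, adjusted p = 0.117), and KDM1B stood at 0.08 (SE 0.06, adjusted p = 0.296). The KDM2 enzymes, which bind unmethylated CpG islands and act on H3K36, both rose. KDM2A had log2 values of 5.94, 5.88 and 6.03 at 0 h and of 6.76, 7.09 and 6.76 at 3 h, and was 1.89-fold higher (log2 change 0.92, SE 0.09, adjusted p = 0.000145). KDM2B, which also brings Polycomb complexes to CpG islands, rose by 0.25 (SE 0.06, adjusted p = 0.00905). The H3K9 demethylase genes KDM3A and KDM3B were called in opposite directions, at -0.18 (adjusted p = 0.0285) and 0.18 (adjusted p = 0.0164). Both changes are small, and leaving out single arrays ended both calls: KDM3A was not called when replicate 1 or 2 of the 0 h arrays (log2 changes of -0.18 and -0.15) or replicate 2 of the 3 h arrays (-0.16) was left out, and KDM3B when replicate 2 or 3 of the 0 h arrays was (0.17 each).

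By the brightest probe set of each gene, the KDM4 family, which removes methyl groups from H3K9 and H3K36, was split. KDM4B stood at 5.75, 5.85 and 5.67 at 0 h and at 6.65, 6.79 and 6.68 at 3 h. It was 1.93-fold higher (log2 change 0.95, SE 0.07, adjusted p = 3.31e-05), with a wide gap between the groups. That size depends on the probe set: with the one brightest at 0 h, KDM4B stood at 0.31 and was not called. KDM4C stood at 6.68, 6.66 and 6.55 and then at 6.19, 6.34 and 6.43, and fell by 0.31 (SE 0.07, adjusted p = 0.00867). Its other probe set over the floor stood at 0.01, and averaged over its probe sets KDM4C stood at 0.054 and was not called. KDM4A and KDM4D were not called, at 0.08 (adjusted p = 0.287) and 0.09 (adjusted p = 0.374), and KDM4E had means of 3.79 and 4.08, both under the floor.

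Of the KDM5 family, which erases H3K4 methylation, the X-linked gene KDM5C stood at 7.56, 7.62 and 7.47 at 0 h and at 8.19, 8.27 and 8.23 at 3 h. The 3 h arrays lay close together and above all 0 h arrays. KDM5C was 1.60-fold higher (log2 change 0.68, SE 0.06, adjusted p = 7.49e-05). Its relative KDM5D, with log2 values of 5.49, 5.71 and 5.78 and then of 5.93, 5.86 and 5.92, rose by 0.24 (SE 0.08, adjusted p = 0.0296), and the call ended when replicate 1 of the 0 h arrays (0.16) or replicate 1 or 3 of the 3 h arrays (0.23 each) was left out. KDM5A stood at 7.17, 7.37 and 7.35 and then at 7.35, 7.34 and 7.48, with overlapping groups (log2 change 0.09, adjusted p = 0.334), and KDM5B at -0.10 (adjusted p = 0.230). Thus H3K4 writers and H3K4 erasers of the KDM5 family were both among the increases.

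The H3K27 demethylase gene KDM6A fell by 0.28 (SE 0.08, adjusted p = 0.0154), from 6.42 ± 0.13 to 6.15 ± 0.08 (SD, n = 3), and was not called without replicate 2 or 3 at 0 h (-0.25 and -0.24). KDM6B, its inducible relative, was under the floor with 4.21, 4.15 and 4.12 at 0 h and 4.48, 4.57 and 4.59 at 3 h, so it was not tested, although the groups did not overlap. With no floor, when all 18132 genes were tested, it was called higher. KDM7A (-0.04, adjusted p = 0.752) and KDM8 (0.05, adjusted p = 0.493) were not called.

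Related genes changed unequally within the same arrays. For 7 pairs, chosen after their values were seen and given here without a test, the log2 difference between the genes was taken on each array. KDM4B minus KDM4C moved by 1.26 (SE 0.07), KDM5C minus KDM5B by 0.78 (SE 0.06), KDM2A minus KDM2B by 0.67 (SE 0.14), KMT5C minus KMT5B by 0.56 (SE 0.14), SETD1B minus SETD1A by 0.44 (SE 0.16) and KDM3B minus KDM3A by 0.36 (SE 0.04). With the probe sets brightest at 0 h, KDM4B minus KDM4C moved by 0.62 (SE 0.23), and the other 6 pairs kept their values. In either choice the groups overlapped for KMT2A minus KMT2B and for none of the others. A difference within an array shows unequal change of the probe sets and does not show that either gene stayed level.

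**Figure D2:**
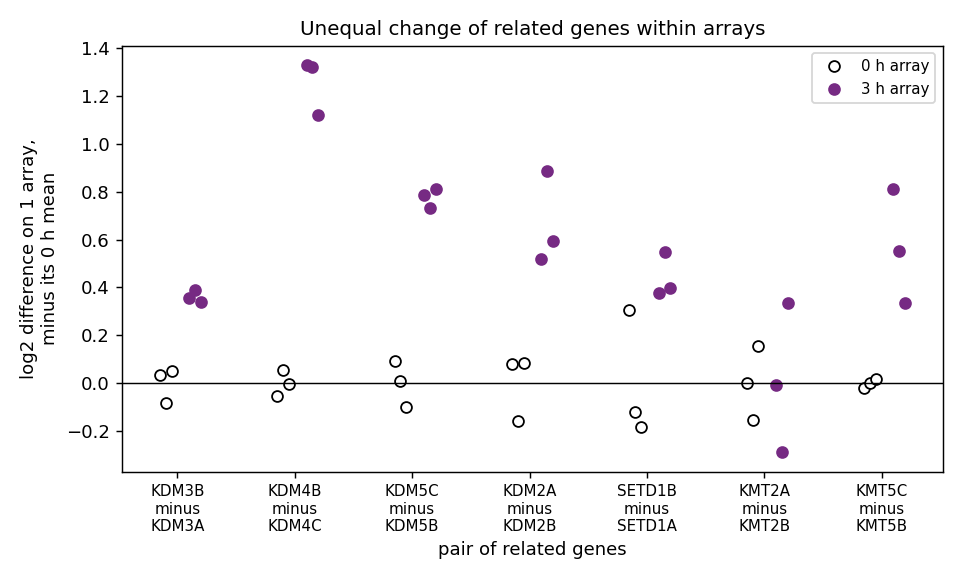
Log2 difference between related genes on each array, minus the mean of that difference at 0 h (open circles 0 h, filled circles 3 h, n = 3 arrays each). The 3 h arrays lie above the 0 h arrays for 6 of the 7 pairs, by most for KDM4B minus KDM4C (1.26, or 0.62 with the probe sets brightest at 0 h, which are not drawn), and the groups overlap for KMT2A minus KMT2B.

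The genes have 1 to 9 probe sets each, and those of 1 gene did not always move together. When every probe set over the floor was tested as a feature of its own, 51.7% of 27235 probe sets were called, 25.6% higher and 26.1% lower. Called genes had 42 further probe sets over the floor, of which 30 changed in the direction of the gene's call, 12 were called in that direction and 2 were called against it. Both that were called against it belong to KMT2E. Of its 8 probe sets over the floor, 2 were called higher (0.34 and 0.44), 2 were called lower (-0.24 and -0.27) and 4 were not called (-0.23 to -0.13). With the probe set that is brightest at 0 h, KMT2E stood at -0.19 and was not called, and averaged over all its probe sets at -0.09. No direction can be given for the gene as a whole.

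KMT2A was split in another way. Of 6 probe sets over the floor 2 rose, by 0.75 and 0.73, and the other 4 stood between -0.08 and 0.06 and were not called. The increase of KMT2A is therefore that of some of its probe sets. For KDM4B the brightest probe set rose by 0.95, while the other 2 over the floor stood at 0.31 (adjusted p = 0.0638) and 0.28 (adjusted p = 0.0651) and the dimmest at 0.09. With the probe set brightest at 0 h, KDM4B was not called (0.31).

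Support from several probe sets was found for KDM2A (0.92 and 0.81), KDM2B (4 of 5 called, 0.25 to 0.54), KDM5C (3 of 6 called, 0.10 to 0.68), KDM3B (0.18 and 0.53), SETD2 (-0.71 and -0.52, with another under the floor at 0.22) and KMT5B (2 of 4 called, -0.53 to -0.05). KDM3A had 2 of 3 called lower, 1 of them by 0.61. Each of SETD3, SETD4, SETD5, KDM4C, KDM5D and KDM6A had 1 probe set called and its others over the floor not called. Those of SETD3 reached from -0.34 to 0.16, and SETD3 was not called (-0.10) when probe sets of shared or cross-hybridizing design (IDs ending in _s_at or _x_at) were left out. The second probe set of SETD5 stood at 0.19 and that of KDM4C at 0.01. KMT2B had 1 probe set over the floor, which was called higher, and its others, under the floor, stood at 0.10 and 0.33.

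Among genes that were not called by their brightest probe set, 5 had another one called. KMT5A had 3 of 5 higher (0.44, 0.62 and 0.64), and averaged over all 5 it was called higher. KMT2C had 1 of 3 higher (0.71), with 2 dimmer ones at 0.73 and 0.53 that were under the floor. KDM4A, KMT2C and SETD7 too were called higher when averaged over their probe sets. KDM4A had 1 higher at 0.53, KDM5A 1 lower at -0.43 and SETD6 2 lower at -0.29 and -0.54. KMT5A has probe sets whose IDs mark shared or cross-hybridizing designs only, so its values may include RNA of other genes.

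**Figure D3:**
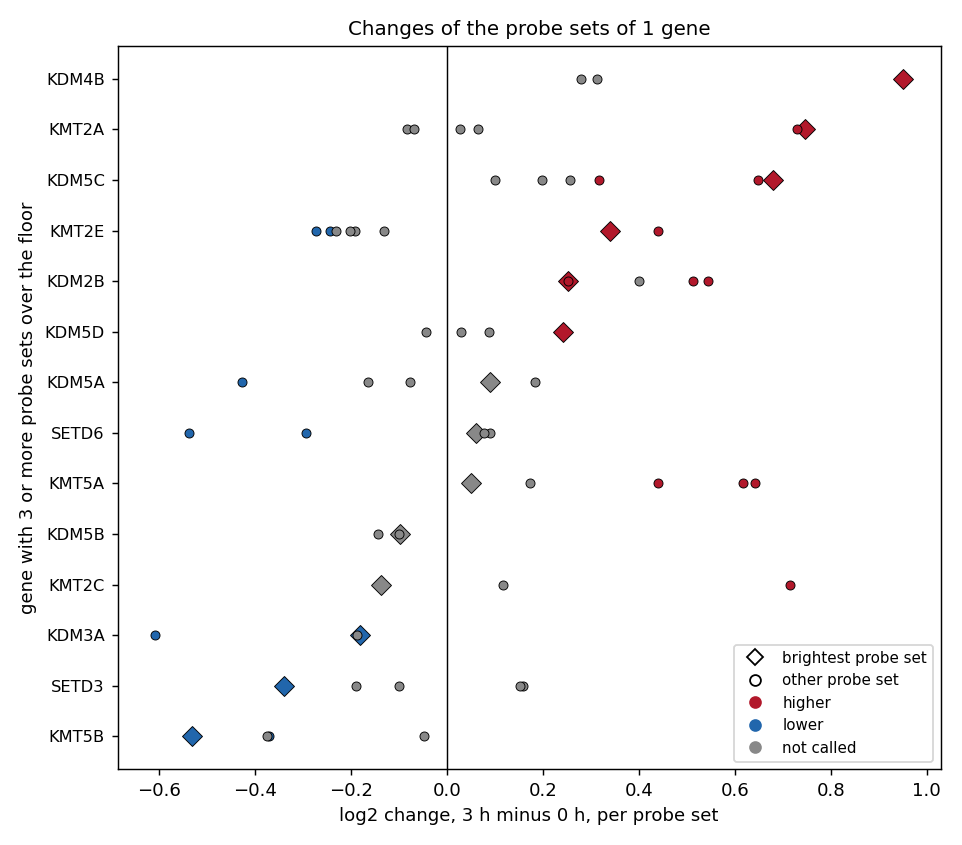
Log2 change of each probe set over the floor for the 14 genes with at least 3 of them (diamonds brightest probe set, circles others, coloured by the call of the limma fit over all probe sets). Probe sets of KMT2E lie on both sides of 0, those of KMT2A fall into 2 near 0.7 and 4 near 0, and those of KDM2B and KDM5C lie above 0.

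Position and promoter composition were then set beside the changes. Genes that rose had a median of 16.5 protein-coding genes within 500 kb, from 1 for KDM5D to 50 for KMT2B, and those that fell a median of 6, from 2 for KDM4C to 14 for SETD2. Over all tested genes the medians were 16 for those that rose and 8 for those that fell, so the writers and erasers followed the array at large in this. With the trend on gene density removed, KDM3A, KDM4C and KDM6A were not called, and KDM1B, KDM5A and KDM8 were called higher. In the 250 bases before the transcription start, G and C made up a median of 69.6% for the genes that rose and 68.2% for those that fell, against 66.8% and 62.7% over all tested genes that rose or fell. SETD1B had no entry in the promoter table, which held 33 of the 34 genes.

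**Figure D4:**
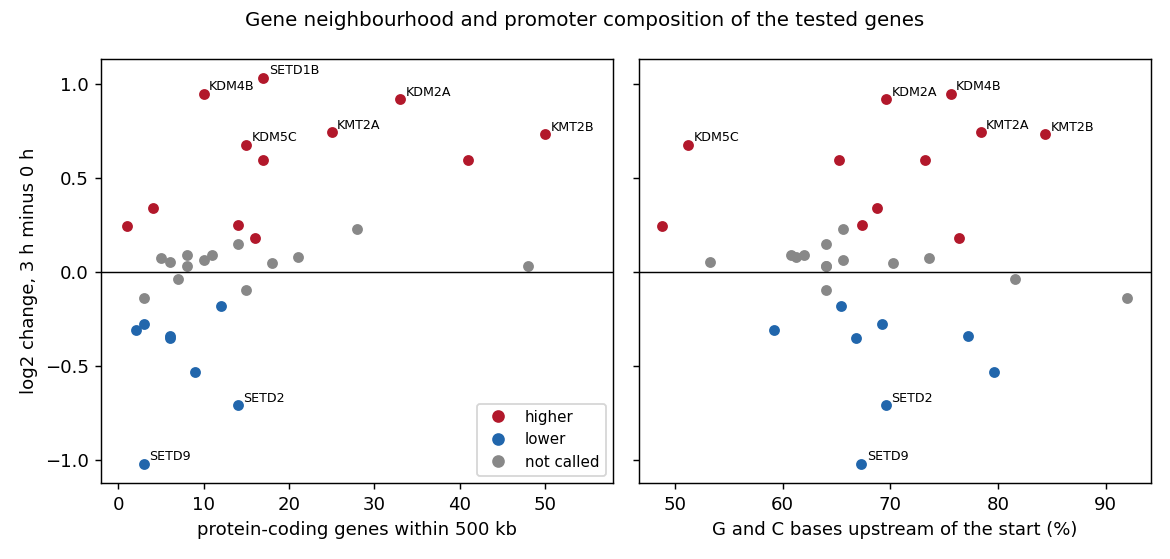
Log2 change of the tested genes against the count of protein-coding neighbours within 500 kb (left, 34 genes) and the percentage of G and C in the 250 bases before the transcription start (right, 33 genes), coloured by the limma call. Genes above 0 on the left reach up to 50 neighbours while the genes called lower have at most 14, and on the right the 2 directions overlap.

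In the promoters printed above and those of the other genes, an AP-1 match was found in 3 of 33: in KDM3A, KDM4C and KDM6A, which are 3 of the 8 genes that fell. KDM3A has 2 windows in the table, and 1 of them, the one printed, holds the match. It begins 40 bases before the start in KDM3A, 59 in KDM4C and 110 in KDM6A. Of the promoters of all tested genes 4.38% hold this match and of all windows of that length 4.20%. The 3 decreases are small (0.18 to 0.31 on the log2 scale), and all 3 calls ended with the gene density trend removed. Whether the match goes with the direction of change was not tested. An E-box was found in 5 promoters: that of KDM4B, which rose, those of KDM4C and KDM6A, which fell, and those of KMT2D and SETD6, which were not called, so it stood on both sides, and 11.2% of all tested genes and 6.34% of all windows hold one. In KDM4C 1 of the 2 E-boxes begins 63 bases before the start and shares letters with the AP-1 match, and the other begins 31 bases before it. The core of the antioxidant response element (TGACNNNGC), read by NRF2, was found in the promoters of KDM4C, KMT2D and SETD6, or 9.09% of the 33, with 15.7% of all tested genes and 10.9% of all windows. The GC box (GGGCGG) was found in 27 promoters, or 81.8%, with 73.7% of all tested genes and 42.6% of all windows, and CCAAT in 13, or 39.4%, with 41.0% and 32.0%. A match of letters is a description and not a site.

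Partner genes were taken from 6 lists and counted against the same shares of all tested genes (20.6% higher, 30.8% lower). Of 15 subunits of the COMPASS complexes 4 rose and 4 fell, with a median log2 change of 0.01. HCFC1, the host cell factor shared by SETD1A and SETD1B complexes, rose by 0.99 (SE 0.08, adjusted p = 4.68e-05), and MEN1, menin of the KMT2A and KMT2B complexes, rose by 0.47. BOD1L1, which works with SETD1A at replication forks, fell by 1.05, and HCFC2 fell by 0.56. The subunits that were called therefore moved in both directions. Their catalytic partners that were called all rose by their brightest probe set, while KMT2C and KMT2D were not called.

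Of 11 tested partners of KDM1A in the CoREST complex 5 rose and 1 fell (median 0.05). GSE1 rose by 0.60, the corepressor gene CTBP1 by 0.53 and ZMYM3 by 0.36, while ZMYM2 fell by 0.65, a call that ended (0.14) when _s_at and _x_at probe sets were left out. RCOR2 was not tested. Of 22 tested methyltransferases with other symbols 7 rose and 8 fell (median 0.06). NSD2, which places H3K36 dimethylation, rose by 0.64, a call that ended (-0.07) when _a_at, _s_at and _x_at probe sets were left out. SMYD5 rose by 0.35, SMYD2, which methylates p53 among others, fell by 0.56 and METTL21A, a methyltransferase of heat shock proteins, fell by 0.66. ASH1L was not tested. Of 13 tested JmjC proteins with other symbols 2 rose and 4 fell (median -0.06): JARID2, a Polycomb partner, rose by 0.66 and PHF2 by 0.56. TYW5, a hydroxylase acting on transfer RNA, fell by 0.49, and RIOX2, which acts on a ribosomal protein, fell by 0.38. PHF8 and JMJD7 were not tested.

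The last lists hold genes that supply the cofactors. Of 10 genes for the supply and recycling of S-adenosylmethionine 1 rose and 5 fell (median -0.14). NNMT, which spends S-adenosylmethionine on nicotinamide, fell by 0.72, the methionine synthase reductase gene MTRR by 0.40, the mitochondrial carrier gene SLC25A26 by 0.31 and MAT2A, which makes S-adenosylmethionine, by 0.21. The call of MTRR ended (-0.11) when _s_at and _x_at probe sets were left out, and that of SLC25A26 with the gene density trend removed (-0.16) or without _a_at, _s_at and _x_at probe sets (-0.16). MAT2A is not settled: it was called higher at 0.30 averaged over its probe sets and stood at 0.06 when _s_at and _x_at probe sets were left out. Of 12 tested enzymes of 2-oxoglutarate, succinate and fumarate 5 rose and 3 fell (median 0.10), with OGDH rising by 0.41, SDHA by 0.28 and IDH3B by 0.25. The call of IDH3B ended when replicate 1 of the 0 h arrays was left out (0.24), averaged over its probe sets (0.072) and without _s_at and _x_at probe sets (0.11). The cytosolic isocitrate dehydrogenase gene IDH1, which makes 2-oxoglutarate, fell by 0.28, and that call too ended with _s_at and _x_at probe sets left out (0.03) or the gene density trend removed (-0.18). SDHB and FH were not tested.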

How the data were processed

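The values deposited by the authors are log2 signals, 1 per probe set and array. The log2 scale was read from the values, and array medians ran from 5.30 to 5.34. MAS5 and RMA are named in the submitters' processing notes, which give neither role nor order, so which of them made the values is not known here. Genes were named from probe sets with 1 platform symbol (44988). Each gene was represented by its brightest probe set over the 6 arrays, and tested where its mean reached the 40th percentile of the non-control probe sets (a floor of log2 4.64), which removed 5911 genes. The 3 h arrays were compared with the 0 h arrays with lmFit and eBayes of limma 3.58.1 (R 4.3.3), adjusted by Benjamini-Hochberg at 0.05, and the step was tested on simulated data. Changes are 3 h minus 0 h in log2, and the number of arrays limits the precision. Array-by-array values are given for the 14 largest called changes, for called genes whose other probe sets disagree and for the 3 brightest genes not called; up to 4 called genes with the smallest p are named per partner list. The genes and lists were chosen with earlier results of these data known. Figures were drawn with matplotlib 3.10.9. The alternatives tried covered the probe set per gene, the floor, scaling, variance moderation, array weights, pairing, thresholds, gene density and each array left out.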

Additional observations from a re-analysis of the deposited data

Results flagged for a closer look

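Probe sets that name KMT2C together with BAGE genes, which carry copies of part of KMT2C, were left out of all comparisons. On 2 of the 4, all 3 h arrays were higher than all 0 h arrays, by 0.39 (from 4.19 ± 0.03 to 4.58 ± 0.12) and by 0.33 (from 4.10 ± 0.04 to 4.43 ± 0.23; log2, SD, n = 3). Both lie under the floor of 4.64 and cannot be given to 1 gene.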

How the results depend on the processing

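Of 20 alternatives, 3 were chosen after seeing the data: the probe set brightest at 0 h, the gene density trend removed and leaving out _s_at and _x_at probe sets alone. So were the fit over single probe sets, the pairs with probe sets brightest at 0 h and the H3K4 writers without KMT2E. KDM2A, KDM5C, KMT2B, SETD1A, SETD1B, SETD2 and SETD9 were called in each alternative in which they were measured. Of these, only KDM5C and SETD1A were measured in all 20. KDM2A, SETD1B, SETD2 and SETD9 were measured in 19, as they have no probe set without an _a_at, _s_at or _x_at ID. KMT2B was measured in 17. It was under the floor averaged over probe sets, with the floor at the 60th percentile and without probe sets of those IDs. SETD1A, SETD1B and SETD9 have 1 probe set each, so the choice of probe set could not change their values. With 1 array left out, 10 to 12 writers and erasers were higher and 6 to 9 lower (all genes 2081 to 2525 and 3114 to 3627). Without _a_at, _s_at and _x_at probe sets 12 of the genes could be tested, and 2 were higher and 1 lower (all genes 697 and 995 of 3803). In a test against a change of 1.2-fold (treat), 8 were higher and 2 lower (all genes 782 and 1006). With the gene density trend removed, 15 were higher and 5 lower (all genes 2825 and 3213 of 11947). The cause of these moves was not tested, beyond the fewer genes and the stricter null. Averaged over probe sets, KDM1B stood at -0.038, KDM4C at 0.054, KDM5A at -0.072, KMT2C at 0.39, KMT2E at -0.092, SETD6 at -0.12 and MAT2A at 0.30. Without _a_at, _s_at and _x_at probe sets KMT2A stood at -0.084, KMT2E at -0.23 and NSD2 at -0.073. Without _s_at and _x_at ones, ZMYM2 stood at 0.14, MAT2A at 0.058 and IDH1 at 0.030. KMT2E with the probe set brightest at 0 h stood at -0.19, and with the density trend removed KDM7A stood at 0.088, KMT2C at 0.0063 and KMT5C at -0.051. With 1 array left out KDM7A ranged from -0.11 to 0.053, KMT5A from -0.028 to 0.092, SETD6 from -0.028 to 0.13 and SETD7 from -0.051 to 0.083. With the replicate number as a block 12 were higher and 7 lower (all genes 2336 and 3502), and only the call of KDM3A ended. Same-numbered arrays had correlations of deviations of -0.04, -0.02 and -0.19, and arrays with different numbers had values from -0.14 to 0.17. Deviations from a mean of 3 arrays are tied to each other, so these values cannot tell whether any arrays share a culture or a day. Probe sets near the floor, such as those of KMT2D, limit what can be said of a change.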
